A study of Homo sapiens with 8 samples.

Results

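ROCK1 and its pseudogene ROCK1P1 were followed in 8 sequencing libraries made from HEK293T, an established line of human embryonic kidney origin. The members were the rows of the deposited transcript table whose RefSeq identifier maps to either gene. These were 2 of the 53216 transcripts in the table, NM_005406 for ROCK1 and NR_033770 for ROCK1P1. ROCK1P1 had been chosen because earlier results of these data showed it far higher in captured RNA of wild-type cells than in unselected RNA, so its values in that contrast are a description and carry no test. ROCK1 was chosen as its parent gene and not by its values. The question was whether the capture signal of the pseudogene follows that of the parent.

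The study asked which human RNAs carry an NAD cap and how DXO, a deNADing enzyme, clears them. Wild-type (WT) RNA was sequenced after ribosomal RNA depletion with RiboMinus in 2 libraries and after NAD-Capture in 3, and RNA from a line labelled DXO-KO, a knockout of DXO, was sequenced after NAD-Capture in 3. All libraries came from untreated HEK293T cultures. Whether the knockout line was a single clone is not given in the sources used here. NAD-Capture uses ADP-ribosylcyclase to put an alkyne on NAD-carrying RNA, a copper-catalysed click reaction to add biotin, and streptavidin beads to bind it. The reaction without the cyclase was the background control, and libraries of it were not analysed here. RiboMinus RNA was made into libraries with a TruSeq kit and captured RNA with a SMARTer low-input kit, so capture and library kit cannot be told apart in any comparison with RiboMinus.

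ROCK1 encodes a serine/threonine kinase that the small GTPase RHOA and its relatives switch on. The kinase phosphorylates myosin light chain, the myosin phosphatase subunit PPP1R12A and the LIM kinases, and thereby raises actomyosin contractility and stabilises actin filaments. ROCK1P1 is annotated as a transcribed unprocessed pseudogene, a partial copy of ROCK1 that arose by duplication of genomic DNA and keeps intron and exon structure. An NAD cap stands at the 5′ end of an RNA, where NAD takes the place of the initiating adenosine nucleotide.

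The sequences show what the pseudogene shares with its parent and where it differs. They come from GENCODE release 29 transcripts on GRCh38, paired with the 2 RefSeq rows; the submitters' processing notes name hg19 for the deposited values, and no coordinates of that build are used. On GRCh38 the ROCK1P1 transcript lies at chr18:109065-122219 on the plus strand, with 5 exons and 2457 nt. The ROCK1 transcript lies at chr18:20946906-21111851 on the minus strand, with 33 exons, 9484 nt and 1354 coding residues. The annotated 5′ ends are shown for their starting base, given as a capital, because an NAD cap is tied to that base:
ROCK1P1: Actgcctacagggaatttcgacaaatctct
ROCK1: Gctggttccccttccgagcgtccgcgcccc
Of 42975 GENCODE transcripts paired with a row of the table, 33.0% begin with A, as ROCK1P1 does, and 36.1% with G, as ROCK1 does. Annotated starts can differ from the starts used in these cells, and cap structure was not measured base by base.

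Exon 1 of ROCK1P1, nt 1 to 389 (chr18:109065-109453), had no counterpart in ROCK1. It is a tandem repeat with a best period of 69 nt, at which 67.5% of its bases match. The string TGCCTNCAGG, searched on the transcribed strand, occurs 6 times in it, and 2 other paired transcripts hold it 3 or more times. Units 2, 3 and 5 are shown as examples of the repeat, with this string in capitals:
Unit 2: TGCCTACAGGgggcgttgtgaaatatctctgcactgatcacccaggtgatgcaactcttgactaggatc
Unit 3: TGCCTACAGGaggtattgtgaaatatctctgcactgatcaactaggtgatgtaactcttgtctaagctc
Unit 5: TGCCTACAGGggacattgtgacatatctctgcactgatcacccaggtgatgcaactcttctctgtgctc

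Exons 2 to 5 of ROCK1P1 aligned to ROCK1 over 2068 nt, 84.2% of the pseudogene transcript, with 19 substitutions, 2 gap positions and 99.1% identity. Exons 2, 3 and 4 match ROCK1 exons 30, 31 and 32 and cover the last 550 nt of its coding sequence together with the first base of exon 5. The remaining 1518 nt of exon 5 match the start of the ROCK1 3′ untranslated region in exon 33. The coding part differed at 4 positions. The densest stretch, in ROCK1P1 exon 3 (ROCK1 transcript nt 4676 to 4735, ROCK1P1 nt 612 to 671), is shown with the differing bases in capitals, because it shows how little separates the copies:
ROCK1: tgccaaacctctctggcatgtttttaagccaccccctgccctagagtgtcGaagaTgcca
ROCK1P1: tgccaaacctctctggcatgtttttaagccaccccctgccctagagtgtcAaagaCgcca
Counted from 1 at the start of the stretch, with the ROCK1 base given before the position, the substitutions are G51A and T56C. Of the 2419 distinct 25-base words of ROCK1P1, 1617 (66.8%) also occurred in a ROCK1 transcript, 0 in a transcript of any other GENCODE gene, and 802 (33.2%) in no other transcript on either strand. All 351 words of exon 1 were among the latter. Conversely, 17.1% of the 25-base words of ROCK1 occurred in ROCK1P1. Reads from the shared part could have been assigned to either gene, so both levels are uncertain to the extent that the authors' counting split them.

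**Figure D1:**
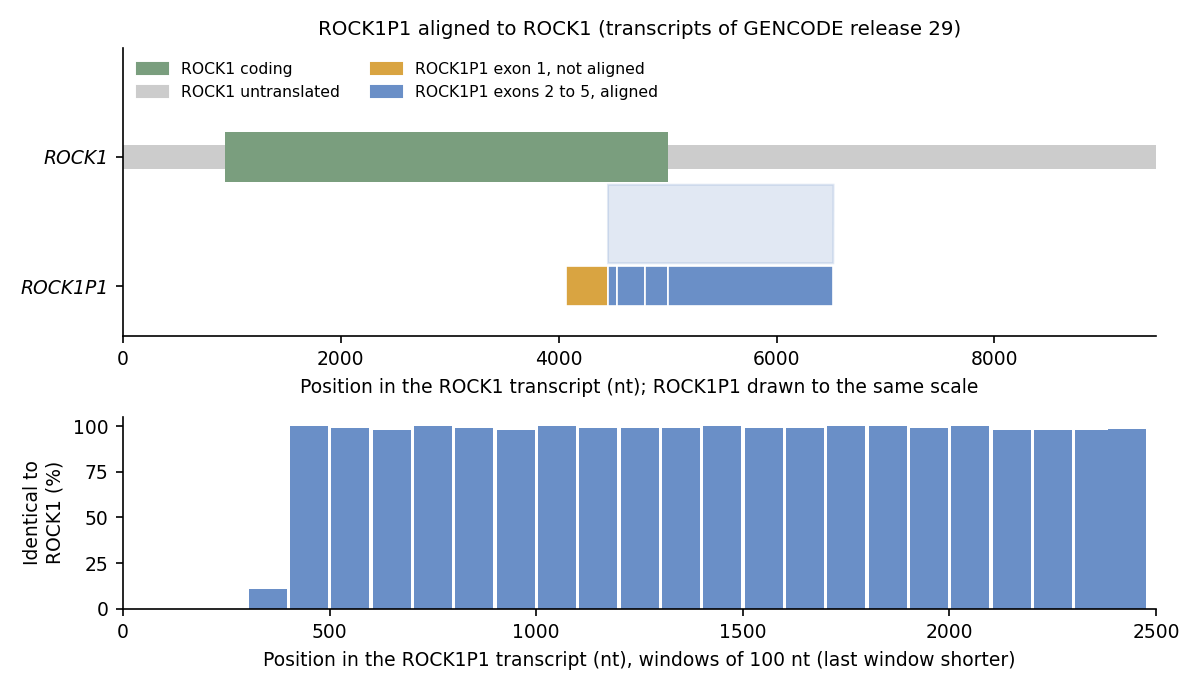
Top, the ROCK1 transcript with its coding part and the ROCK1P1 exons drawn to the same scale in nt; bottom, the percent of each 100 nt window of ROCK1P1 that is identical to ROCK1. Exon 1 (389 nt) has no match, and exons 2 to 5 match the end of the coding part and the start of the 3′ untranslated region at 99.1% identity.

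Depth differed widely between the groups. Levels are in FPKM, which divides a transcript's fragments by its length and by the size of the library. From the smallest steps between low values, depth corresponded to 8757051 and 10711486 fragments in the RiboMinus libraries, 165342 to 249585 in WT NAD-Capture and 79998 to 806793 in the libraries labelled DXO-KO. DXO RNA was at 11.2 and 14.3 FPKM in RiboMinus and at 17.2 to 33.2 in WT NAD-Capture. Under the DXO-KO label it was at 61.6 to 127.6 FPKM, above every WT library. These values cannot decide whether the label is right. No RiboMinus library carries that label, and FPKM after capture depends on capture as well as on the RNA level. Of 8 markers listed for HEK293T, VIM, at 307.6 and 321.4 FPKM, made up most of the RiboMinus sum, and the summed marker level was 345.9 to 364.6 FPKM in RiboMinus, 156.9 to 228.8 in WT NAD-Capture and 338.7 to 430.5 in the libraries labelled DXO-KO. Other markers of the list went the other way. NEFM was at 3.89 and 4.20 FPKM in RiboMinus and at 34.8 to 83.1 in WT NAD-Capture. PAX2 and LHX1 were below 1 FPKM in both RiboMinus libraries and at 4.77 to 7.54 in WT NAD-Capture. Above 1 FPKM in every library of a group were 6 of the 8 markers in RiboMinus, 8 in WT NAD-Capture and 5 under the DXO-KO label. Under that label KRT18 and LHX1 were listed at 0 in replicate 3 and PAX2 in replicate 2. Of 6 markers of other cell types, PTPRC and HBB were listed at 0 in all 8 libraries, and the sum over the list was at most 15.0 FPKM. CD3E reached 0.930 FPKM and ALB 0.229. COL1A1 was at 1.27 and 1.56 FPKM in RiboMinus, 8.27 to 9.28 in WT NAD-Capture and 0 to 4.43 under the DXO-KO label. PECAM1 was listed at 0 in RiboMinus and reached 5.75 FPKM in WT NAD-Capture and 2.92 under the DXO-KO label. The labels give no batch. They do not say that replicates came from separate cultures, so p-values measure only the spread between these libraries, which may be technical.

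ROCK1P1 was scarce in unselected RNA and abundant in captured WT RNA. It was at 0.705 and 0.152 FPKM in RiboMinus replicates 1 and 2. Captured WT RNA held 1014, 1105 and 869 FPKM in replicates 1 to 3. Under the DXO-KO label the values were 17.1, 38.5 and 143.1 FPKM, in replicate order. The 3 groups did not overlap: every captured library lay above RiboMinus, and every library labelled DXO-KO lay between RiboMinus and WT NAD-Capture. In bulk RNA, fewer cells with a transcript and less of it per cell cannot be told apart.

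ROCK1 behaved otherwise. It was at 22.5 and 22.2 FPKM in RiboMinus replicates 1 and 2. Its WT NAD-Capture values were 17.98, 20.0 and 4.44 FPKM in the same order. Under the DXO-KO label the values were 17.1, 14.9 and 13.5 FPKM. Both RiboMinus libraries lay above every captured library, and the captured groups overlapped, with WT NAD-Capture replicate 3 the lowest of all 8.

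**Figure D2:**
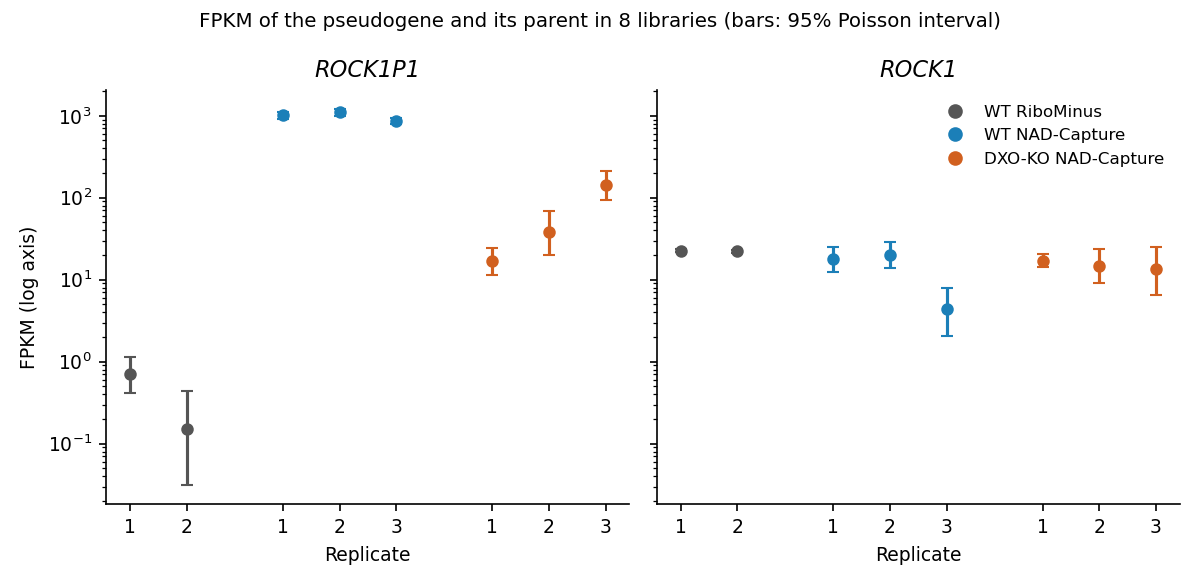
FPKM of ROCK1P1 (left) and ROCK1 (right) on a shared log axis, 1 point per library, grouped and coloured by the labelled group, with 95% Poisson intervals of the fragment count as bars. ROCK1P1 sits at 869 to 1105 FPKM in WT NAD-Capture and at or below 143.1 elsewhere, while ROCK1 stays between 4.44 and 22.5.

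The fragment counts behind these values set their precision. ROCK1P1 rested on 17 and 3 fragments in RiboMinus, on 438, 412 and 490 in WT NAD-Capture, and on 31, 12 and 26 in the libraries labelled DXO-KO. ROCK1 rested on 2242 and 1803 fragments in RiboMinus, on 32, 31 and 10 in WT NAD-Capture, and on 128, 19 and 10 in the libraries labelled DXO-KO. For ROCK1P1 the 95% Poisson intervals of the 3 captured WT libraries spanned 795 to 1216 FPKM, while the highest bound of a library labelled DXO-KO was 211.0 FPKM, in replicate 3. For ROCK1 the interval of WT NAD-Capture replicate 3, 2.07 to 7.94 FPKM, lay below those of the other WT captured libraries, which reached down to 12.3. PCR copies count as separate fragments, so the intervals hold counting error alone.

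The rank within each library shows the same contrast. Among transcripts of 1000 nt or more, ROCK1P1 ranked 24, 22 and 22 by FPKM in the captured WT libraries, and 16393 and 20235 in RiboMinus. Under the DXO-KO label its ranks were 3010, 1455 and 279. ROCK1 ranked 2595 and 2607 in RiboMinus and between 2625 and 10602 in the captured libraries.

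The spread within each group ran differently for the 2 genes. Across the WT NAD-Capture libraries ROCK1P1 varied 1.27-fold from lowest to highest (996 ± 119 FPKM, SD, n = 3), and ROCK1 4.50-fold (14.1 ± 8.46 FPKM, SD, n = 3). Across the libraries labelled DXO-KO the order was turned round, with 8.37-fold for ROCK1P1 (66.2 ± 67.4 FPKM, SD, n = 3) and 1.27-fold for ROCK1 (15.1 ± 1.84 FPKM, SD, n = 3). In that group the library with the highest ROCK1P1 had the lowest ROCK1, and it was also the shallowest, at 79998 fragments. The library with the lowest ROCK1P1 was the deepest, at 806793 fragments. FPKM summed over all transcripts was 1272060, 8558870 and 6941280 in replicates 1 to 3 under that label. The order of the spreads is given for FPKM as deposited only. The parts of depth and of this sum in these values were not tested.

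Capture was compared first, as WT NAD-Capture against WT RiboMinus. The mean of log2(FPKM + 1) for ROCK1P1 was 9.95 in NAD-Capture and 0.49 in RiboMinus, a difference of 9.47 that ranked 9 from the top of 24777 transcripts tested. This contrast chose ROCK1P1, and nothing is read from its size; in it 25.7% of transcripts passed the threshold of an adjusted p under 0.05, 12.6% passed and were higher, and 21.3% had groups that did not overlap in that direction. limma, a linear model that borrows the estimate of spread across transcripts, was fitted to all of them. The means for ROCK1 were 3.69 and 4.55, a difference of −0.85 (SE 0.709, limma, unadjusted p 0.294, adjusted p 0.478), which did not pass. The ROCK1 groups did not overlap, as held for 26.5% of transcripts tested in the lower direction, and an exact permutation test gave a two-sided p of 0.2, the smallest that 3 against 2 can give. Without WT NAD-Capture replicate 3, the ROCK1 difference was −0.23 (limma adjusted p 0.398). Of all tested transcripts, 30.3% had a lower difference than ROCK1.

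The captured groups were compared next, to ask whether the pseudogene or the parent differed when cells carried the DXO-KO label. ROCK1P1 had been picked for its high level in these same WT NAD-Capture libraries, so its p-values here are not independent of that choice and support nothing by themselves. The mean log2 of ROCK1P1 was 5.55 under the DXO-KO label and 9.95 in captured WT RNA, a difference of −4.40 (SE 0.709), equal to 21.2-fold on the log2(FPKM + 1) scale. It was lower in 3 of 3 libraries. In limma the difference had an unadjusted p of 0.000339 and, over all transcripts, an adjusted p of 0.134, so it did not pass. The exact permutation test gave p = 0.1 (two-sided, the smallest that 3 against 3 can give). In this comparison 0.032% of 25004 transcripts passed, 0.008% passed and were lower, and 8.53% had groups that did not overlap with the DXO-KO label lower. By size the ROCK1P1 difference was 57 from the bottom, with 0.224% of transcripts lower. When all 8 libraries were fitted jointly, the same difference passed (limma adjusted p 0.0422; the other alternatives reached up to 0.572).

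ROCK1 did not pass between the captured groups. Its means were 4.01 under the DXO-KO label and 3.69 in WT NAD-Capture, a difference of 0.31 (SE 0.625, limma adjusted p 0.852; exact permutation p = 1.0). Without WT NAD-Capture replicate 3 the sign turned, to −0.31. With an SE this large, the test does not show that the levels were alike.

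Against WT RiboMinus, the libraries labelled DXO-KO had ROCK1P1 higher by 5.06, with no test because the RiboMinus libraries had a part in choosing it; 17% of 22429 transcripts tested had groups that did not overlap in that direction. ROCK1 differed by −0.54 (SE 0.230, limma adjusted p 0.276) and did not pass, in a comparison where 14% of transcripts did. Its groups did not overlap, as for 23.1% of transcripts in the lower direction. The 3 comparisons share libraries, so their values stand side by side and are not independent of each other.

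The ratio of pseudogene to parent sets the genes side by side within each library. As a ratio of FPKM it was 0.0313 and 0.00686 in RiboMinus replicates 1 and 2. The captured WT libraries had ratios of 56.4, 55.3 and 195.7. Under the DXO-KO label it was 0.998, 2.59 and 10.6, in replicate order. Parent RNA thus exceeded pseudogene RNA in RiboMinus, the reverse held in WT NAD-Capture, and in the deepest library labelled DXO-KO both stood at 17.1 FPKM. Under that label the ratio was higher the shallower the library, and the part of depth was not tested.

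On the log2 scale with 1 added to each value, the ratio was −4.06 ± 0.384 (SD, n = 2) in RiboMinus, 6.26 ± 0.919 (SD, n = 3) in WT NAD-Capture and 1.54 ± 1.67 (SD, n = 3) in the libraries labelled DXO-KO. Between the captured groups it differed by −4.72, with no overlap between groups (two-sided p = 0.1 by exact permutation, again the minimum, with the same limit from the choice of ROCK1P1). Between WT NAD-Capture and RiboMinus it differed by 10.3, given without a test. Of all fragments on the 2 genes, ROCK1P1 took 0.753% and 0.166% in RiboMinus, 438 of 470, 412 of 443 and 490 of 500 fragments in WT NAD-Capture, and 19.5%, 38.7% and 72.2% under the DXO-KO label. No correlation between the genes is given, because the libraries fall into 3 separate clusters of at most 3.

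**Figure D3:**
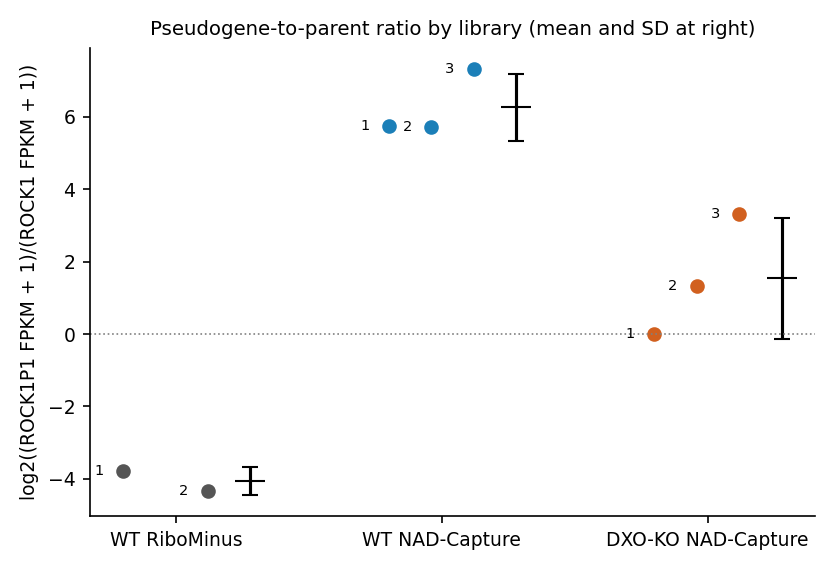
log2((ROCK1P1 FPKM + 1)/(ROCK1 FPKM + 1)) for each library by labelled group, numbered by replicate, with the group mean and SD in black; the dotted line marks equal FPKM. The groups do not overlap, with means of −4.06, 6.26 and 1.54.

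ROCK1P1 was set beside the other pseudogenes of the table. A pseudogene symbol was counted where it is the symbol of another gene in the table followed by P and a number, which gave 428, and FPKM was summed per symbol. In WT NAD-Capture against RiboMinus, the median difference over 206 pairs with both genes tested was 0.74 for pseudogenes and −0.25 for parents, against 0.21 for all gene sums. Pseudogenes listed at 0 in RiboMinus passed the filter on low values through the captured libraries alone and had to differ, so nothing is read from these medians. In the captured groups, over 220 pairs, the medians were −0.21 for pseudogenes and 0.23 for parents with the DXO-KO label minus WT, against −0.01 for all gene sums. Of 243 pseudogenes tested there, 25 were lower and 16 higher with groups that did not overlap. Among all single transcripts tested, 8.53% were lower and 7.57% higher in that way. Pseudogenes listed at 0 throughout either captured group passed the filter through the other group alone, so nothing is read from these counts.

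ROCK1P1, RPL13AP5, RPL23P8 and RPS18P9 were among the 5 most abundant pseudogenes in WT NAD-Capture. RPL13AP5, a ribosomal protein pseudogene, was listed at 0 in both RiboMinus libraries and was at 92.1 to 282.7 FPKM in WT NAD-Capture and 121.0 to 370.1 under the DXO-KO label. RPL23P8 and RPS18P9, also ribosomal protein pseudogenes, differed by 2.55 and 1.59 with capture and by 0.59 and 0.61 between the captured groups. Such copies could share reads with their parents or with other copies, so these levels are uncertain too.

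**Figure D4:**
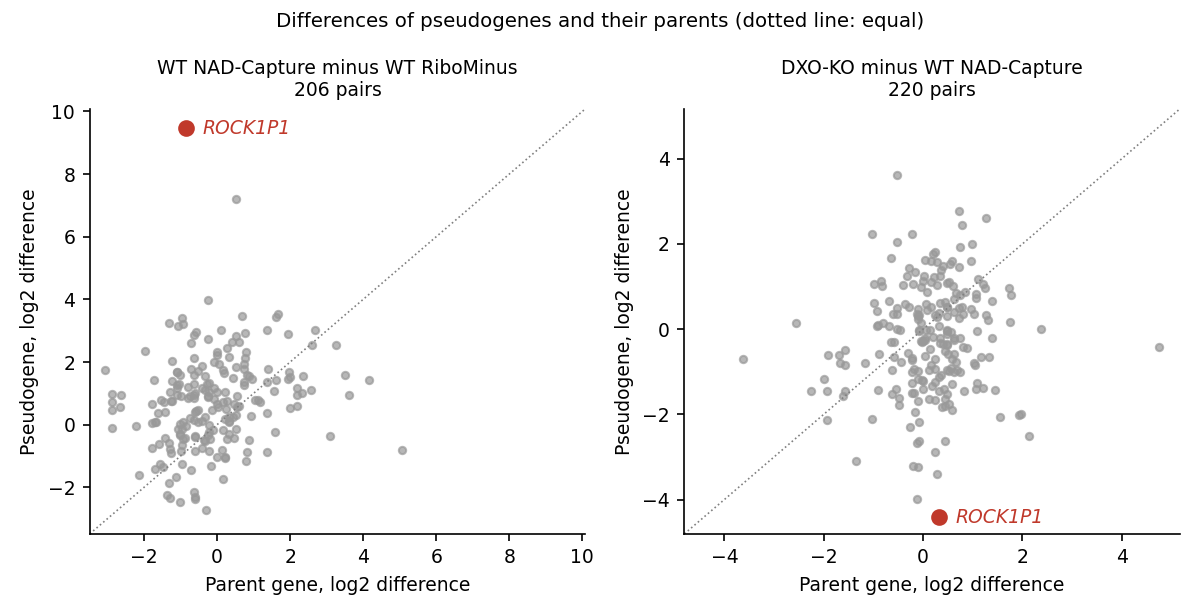
Each point is a pseudogene and its parent gene, placed by the log2(FPKM + 1) difference of the parent (x) and of the pseudogene (y), with WT NAD-Capture minus WT RiboMinus on the left (206 pairs) and the DXO-KO label minus WT NAD-Capture on the right (220 pairs). ROCK1P1, in red, stands at 9.47 on the left, the contrast that chose it, and at −4.40 on the right.

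Transcripts were ranked by the likeness of their pattern to each member, as Pearson's r of log2(FPKM + 1) over the 8 libraries among 25420 transcripts averaging 1 FPKM or more. The libraries share 3 groups and their depths, so r only orders the transcripts and nothing is read from its size. For ROCK1P1 the 5 most alike were transcripts of MEIOSIN (r = 0.993), SLC25A35 (0.993), CEBPB-AS1 (0.992), GSG1L (0.992) and SIGLEC8 (0.990). All 5 were low, at most 20.9 FPKM in any library against 869 to 1105 for ROCK1P1 in WT NAD-Capture. Under the DXO-KO label all 5 were at 1.69 to 2.84 FPKM in replicate 2 and at 2.86 to 4.87 in replicate 3. There 1 fragment per kb of corrected length was worth 7.32 and 12.5 FPKM, so each held less than 1 fragment per kb. All 5 rose between these libraries, as did the worth of 1 fragment. The part of depth in these r values was not tested. For ROCK1 they were transcripts of MAT2B (r = 0.985), WBP1L (0.972), METTL5 (0.968), RPS19BP1 (0.968) and AURKAIP1 (0.967). Each of these was lowest in WT NAD-Capture replicate 3, as ROCK1 was.

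The other genes of the ROCK pathway were taken from a list of 37 genes in 3 roles, each by its most abundant transcript. In WT NAD-Capture against RiboMinus 36 could be tested, of which 1 passed higher and 4 lower, against 12.6% and 13.1% of all transcripts. The 1 that passed higher, a transcript of CIT, passed the filter on low values through the captured libraries alone. Nothing is read from that pass. An unadjusted p under 0.05 was reached by 11, against 34.1% of all transcripts. Their median difference was −0.88, against 0.24 for all transcripts tested, and 26 of 36 lay below 0. The list takes the most abundant transcript of each gene, so all transcripts are not matched to it in level. At a mean FPKM of at least 10 the medians were −0.94 for 25 listed genes and −0.42 for all transcripts. Over all settings that median ran from −1.35 to −0.48. When each library was centred on its median 10 passed (9 lower), where 6231 of all transcripts passed, 4000 of them lower.

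Among the GTPases that switch the kinase on, RHOC fell by 1.48 with capture (limma adjusted p 0.0237). RHOA, at 230.1 and 212.4 FPKM in RiboMinus and 90.5 to 149.9 in WT NAD-Capture, differed by −0.87 (limma adjusted p 0.0950), and RHOB by 0.19 (adjusted p 0.729). Of the related kinases, ROCK2, the close homologue of ROCK1, was at 15.8 and 16.4 FPKM in RiboMinus and at 10.2, 4.95 and 3.30 in WT NAD-Capture, a difference of −1.38 (limma adjusted p 0.133). A transcript of CIT, the citron kinase of cell division, was at 0.0108 and 0.000362 FPKM in RiboMinus and 5.14 to 7.83 in WT NAD-Capture. It passed the filter on low values through the captured libraries alone. Its rise of 2.94 (limma adjusted p 0.00499) therefore supports nothing by itself. FPKM summed over the transcripts of CIT differed by −0.32 and did not pass. The means of RHOC, ROCK1 and ROCK2 were lower in captured WT RNA, and only that of RHOC passed.

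Of 20 substrates and effectors, 3 passed lower with capture, against 13.1% of all transcripts, and 0 higher, against 12.6%. With FPKM summed per gene 5 passed lower and 1 higher, where 1354 of all gene sums passed lower and 2840 higher. The number of all gene sums tested is not given here, so these counts are not shares and nothing is read from them. CFL1, which encodes the actin-severing protein cofilin that LIM kinases inactivate, fell by 1.10 (limma adjusted p 0.0165). MSN, for the membrane-cytoskeleton linker moesin, fell by 1.22 (limma adjusted p 0.0197). VIM, for the intermediate filament protein vimentin, fell by 1.90 (limma adjusted p 0.00634). Differences that did not pass were −0.88 for LIMK1 (−0.075 summed over its transcripts), −1.86 for LIMK2 (−0.56 summed), −0.92 for PPP1R12A, 0.52 for MYL12A and −0.48 for MYL12B, the last 2 encoding myosin light chains. Summed over transcripts, MYL12A differed by −0.066, so its sign turned.

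Between the captured groups 0 of 37 pathway genes passed in limma, and 5 had an unadjusted p under 0.05, against 9.17% of all transcripts. With FPKM summed per gene 0 passed and 8 had an unadjusted p under 0.05. Of all gene sums 6 passed and 2956 had an unadjusted p under 0.05. The number of all gene sums tested is again not given, so nothing is read from these counts. Of all transcripts 0.032% passed, 0.024% higher. The median difference was 0.62 with the DXO-KO label minus WT, against −0.06 for all transcripts, and 27 of 37 lay above 0. At a mean FPKM of at least 10 the medians were 0.68 for 24 listed genes and 0.25 for all transcripts. RHOA was at 209.5 to 329.9 FPKM under the DXO-KO label, above all 3 WT captured libraries as were 7.57% of transcripts, a difference of 1.11 (limma adjusted p 0.427). ROCK2 differed by 1.20 (limma adjusted p 0.548) and RHOC by 1.22 (adjusted p 0.700). The RHOC transcript was listed at 0 in replicate 2 labelled DXO-KO, and summed over its transcripts RHOC differed by 3.05 (limma adjusted p 0.0509). CFL1 differed by 0.31 and PPP1R12A by 2.49 (1.25 summed), neither past the threshold. Against RiboMinus, RHOB alone of the 37 passed, higher by 1.82 in the libraries labelled DXO-KO (limma adjusted p 0.0348), against 4.41% of all transcripts passing higher and 9.63% lower; 3 had an unadjusted p under 0.05, against 23.9%. Without replicate 1 labelled DXO-KO 7 genes passed in place of 1, with 3 higher and 4 lower. In the same setting calls over all transcripts rose from 3148 to 6530, with 2501 higher and 4029 lower.

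**Figure D5:**
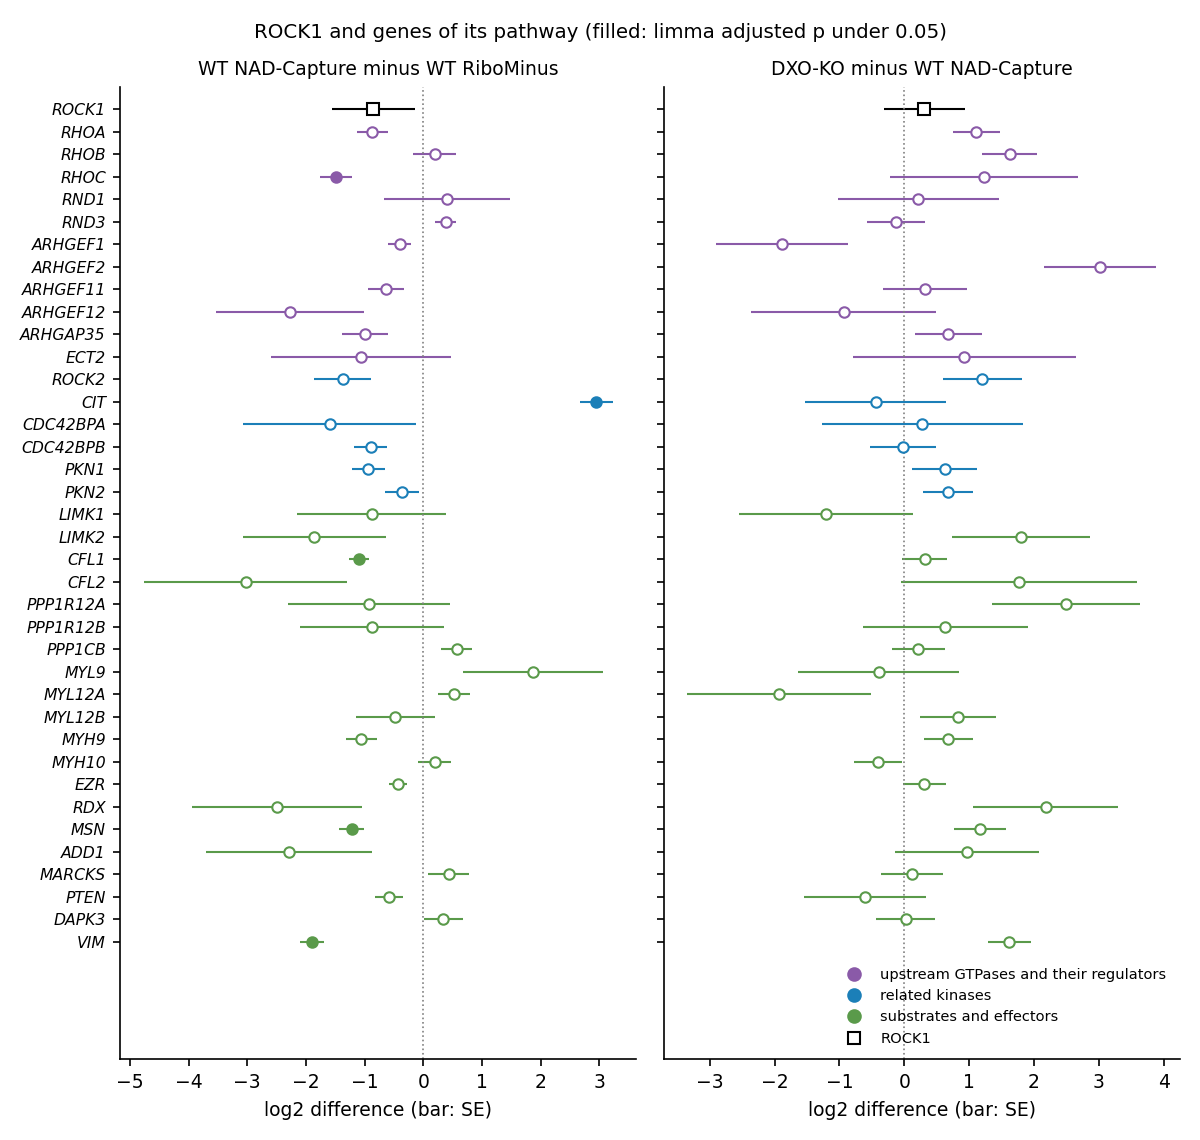
log2(FPKM + 1) differences with SE for ROCK1 (square) and 37 genes of its pathway (circles, coloured by role), with WT NAD-Capture minus WT RiboMinus on the left and the DXO-KO label minus WT NAD-Capture on the right; filled circles passed a limma adjusted p under 0.05. On the left 5 circles are filled and most points lie below 0; on the right none is filled.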

How the data were processed

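The authors deposited FPKM per RefSeq transcript and library, per the table's name; TopHat2 2.1.1, Bowtie2 2.2.8.0, Cuffdiff and hg19 are named, without role or order, in the submitters' processing notes. The annotation version is not given in the sources used here. Of 53216 transcripts, 49500 (93.0%) were paired with a symbol through RefSeq (GRCh38.p14) and GENCODE release 29 tables, used for names and neighbours. Counting by strand is not stated.

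Depth was read from the low values: each FPKM was multiplied by the length less 200 nt, and the spacing of the products gave the worth of 1 fragment, from 7285 transcripts of 1500 to 6000 nt that were alone in their symbol. Of the low values, 71.6% to 73.9% lay within 4% of a multiple. Counts of the members are these multiples, rounded. Isoforms of a gene gave fractional counts, and count models were left out.

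Groups were compared with limma 3.58.1 in R 4.3.3 (trended eBayes, two-sided) on log2(FPKM + 1), keeping transcripts whose FPKM averaged 1 or more over the compared libraries, with Benjamini-Hochberg adjustment over all of them. This scale understates the change of low transcripts. The fit was tested on simulated data in which the spread of each transcript was capped and reduced, so that test does not give its error rate here. Single values were compared by exact permutation (scipy 1.17.1). Sequences were aligned locally with Biopython 1.88. The labels do not say whether replicate numbers pair the libraries, and the main fits did not pair them. The members and lists were chosen with earlier results of these data known. Named were the members, 10 set pathway genes and those past the threshold, the 5 most alike transcripts per member, the 5 most abundant pseudogenes (1 is not reported here), the neighbouring genes and DXO. The alternatives are given at the end.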

Additional observations from a re-analysis of the deposited data

How the results depend on the processing

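The ROCK1P1 difference between the captured groups stayed negative under all 14 alternatives (−5.22 to −3.72, both from leaving out 1 replicate). It passed in 1, the common fit of 8 libraries (−4.40, limma adjusted p 0.0422), where 141 transcripts passed in place of 8. ROCK1P1 was chosen by its values in WT NAD-Capture and RiboMinus, which both enter that fit, so this pass supports nothing by itself. The ratio difference between these groups ran from −5.60 to −3.94 when 1 replicate was left out. With a pseudocount of 0.1 the capture differences were 11.1 for ROCK1P1, 12.03 for the ratio and 6.66 for ROCK1P1 under the DXO-KO label. Centring and quantile normalization gave 9.0005 and 9.12 for ROCK1P1 with capture. Without 1 replicate they ranged from 9.18 to 9.75, 9.79 to 10.6 and 4.25 to 5.75. Without 1 replicate, ROCK1 ranged from −1.20 to −0.23 with capture, from −0.63 to −0.46 for the DXO-KO label against RiboMinus, and from −0.31 (reversed without WT NAD-Capture replicate 3) to 0.66 between captured groups; centring gave −1.32, −0.73 and 0.76. ROCK1 passed under none of the alternatives run.

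Counts over all transcripts moved more. With capture, 6363 calls became 1811 at a mean FPKM of at least 10, 4194 per gene symbol, 3962 in the common fit, and 2639 to 8302 without 1 replicate. Between captured groups 8 calls became 5 with a pseudocount of 0.1, 51 with no filter, 141 in the common fit, and 0 to 15 without 1 replicate. For the DXO-KO label against RiboMinus, 3148 became 5320 with no filter, 647 at a mean of at least 10, 506 per gene symbol, and 1625 to 6530 without 1 replicate (highest without replicate 1 labelled DXO-KO). Centring moved the median of all transcripts from 0.24 to −0.23 with capture and from −0.06 to 0.39 between captured groups, and calls higher with capture from 49.0% to 35.8%; per gene symbol they were 67.7%. Pathway calls with capture were 10 after centring, where 6231 transcripts passed, 9 per gene symbol, and 8 to 10 without 1 WT NAD-Capture replicate. For the DXO-KO label against RiboMinus they were 0 after centring and 3 after quantile normalization, where 2936 and 2300 transcripts passed. Without 1 replicate labelled DXO-KO they were 1 to 7. Pathway counts without 1 RiboMinus library are not given, because that leaves 1 library in the group. Whether the pathway calls against RiboMinus hold without either RiboMinus library is therefore not shown here.

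Same-numbered WT and DXO-KO captured libraries did not deviate together (correlations of −0.03 to −0.01). Counting error in shallow libraries could hide a shared deviation, so these values do not decide whether the numbers pair libraries. The replicate block pairs by number only. With the replicate block, limma called 0 transcripts in each comparison (8499, 1792 and 5383 had an unadjusted p under 0.05) and 0 pathway genes; ROCK1P1 between captured groups was −4.40 (adjusted p 0.572), and the paired exact p of the ratio was 0.25.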

Other observations

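Beside ROCK1P1 lie USP14, for a deubiquitinase of the proteasome, and THOC1, for a subunit of the THO complex of mRNA export. Summed over its transcripts, USP14 was at 14.4 and 18.3 FPKM in RiboMinus, 9.51 to 11.1 in WT NAD-Capture and 10.5 to 22.6 in the libraries labelled DXO-KO. THOC1 was at 18.9 and 19.5 FPKM in RiboMinus and at 18.9, 3.14 and 2.09 in WT NAD-Capture; under the DXO-KO label it was listed at 0 in replicate 2 and was at 8.39 and 25.9 in the others. Neither passed in any of the 3 limma comparisons of summed FPKM. Beside ROCK1 lie GREB1L and ESCO1, at most 23.2 FPKM in any library, and LINC01444 and LINC01443, listed at 0 in nearly all.

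MIR8078, a microRNA gene, lies inside the ROCK1P1 locus on the other strand. It was at 36739 FPKM in WT NAD-Capture replicate 3 and listed at 0 in the other 7 libraries, while ROCK1P1 was at 869 FPKM in that library and higher in the other WT captured libraries. FPKM of so short a row depends heavily on the length correction, and without strand reads of the microRNA gene and of an overlapping pre-RNA cannot be told apart.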
